A study of Mus musculus with 4 samples.

Results

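Forkhead transcription factors of the FOXO, FOXP and FOXK groups, with FOXN3, were examined as 10 genes: Foxo1, Foxo3, Foxo4, Foxp1, Foxp2, Foxp3, Foxp4, Foxk1, Foxk2 and Foxn3. They were followed through the accessible chromatin islands of lymphoid tissue inducer (LTi) cells, group 3 innate lymphoid cells that induce lymph nodes and Peyer's patches. An island belonged to a gene when it lay inside the gene body, or when its nearest protein-coding gene end was that gene's and lay within 50 kb. By this rule 30 of 16584 islands belonged to the 10 genes, 8 of the genes had at least 1 island, and Foxp2 and Foxp3 had none.

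The islands came from DNase-seq, in which the nuclease DNase I cuts open chromatin and the cut ends are sequenced. The series holds 4 libraries of LTi cells sorted from Peyer's patches of C57BL/6 mice, 2 from Tcf7+/+ mice and 2 from Tcf7fl/fl-RorcCre mice. Tcf7 encodes the transcription factor TCF-1, and in the latter mice a Cre recombinase acts on a floxed Tcf7. This Cre is also active in developing T cells, so it is not restricted to LTi cells. No treatment is named, and the sources used here do not give the ages of the mice. The sort kept live CD127+ CCR6+ cells without lineage markers, KLRG1, NK1.1 or NKp46, and each library started from few cells. The deposited table counts each island's reads once for a peak side and once for a control side, and nothing in it ties a side to a genotype. The values below therefore describe accessible regions and the ratio of the 2 sides, and the genotypes are not compared.

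All forkhead proteins bind DNA through a winged-helix domain. FOXO proteins act in the nucleus when growth factor signalling is low. Signalling through PI3K and the kinase AKT phosphorylates them, and 14-3-3 proteins and the exportin XPO1 then hold them in the cytoplasm. In lymphocytes FOXO1 is known for driving genes of survival and homing such as Il7r and Klf2. FOXP proteins pair with each other through a leucine zipper, and FOXP3 defines regulatory T cells while FOXP1 keeps naive T cells quiescent. FOXK proteins carry a phosphopeptide-binding domain beside the forkhead domain and recruit the SIN3A and BAP1 complexes. FOXN3 is a transcriptional repressor known from checkpoint control.

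Transcript starts of these genes fell inside islands where the sequence before the start was rich in CG dinucleotides. The RefSeq promoter table used here (GRCm38.p6) holds 10 starts for 7 of the 10 genes, and 6 of the 10 lay inside an island, against 33.3% of 32841 listed starts of all genes. Foxo1, Foxo3, Foxp4 and Foxk2 each had their listed start inside an island. Of 3 listed starts of Foxp1, the upstream and the downstream start lay inside islands, and the middle start lay 91486 bases from the nearest. Both starts of Foxp3 and the listed internal start of Foxn3 lay outside islands. The 250 bases before the following starts are shown to set starts inside and outside islands side by side, 5′ to 3′, with the capitals marking every match to the motifs given after them.
Foxo1, start inside an island (chr3:52268087-52268336, plus strand): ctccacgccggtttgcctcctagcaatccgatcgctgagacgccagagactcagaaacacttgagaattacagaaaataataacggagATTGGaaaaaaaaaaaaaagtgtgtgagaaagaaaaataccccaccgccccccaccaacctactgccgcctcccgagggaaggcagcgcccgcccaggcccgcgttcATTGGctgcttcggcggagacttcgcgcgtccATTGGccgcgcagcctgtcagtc
Foxo3, start inside an island (chr10:42276696-42276945, minus strand): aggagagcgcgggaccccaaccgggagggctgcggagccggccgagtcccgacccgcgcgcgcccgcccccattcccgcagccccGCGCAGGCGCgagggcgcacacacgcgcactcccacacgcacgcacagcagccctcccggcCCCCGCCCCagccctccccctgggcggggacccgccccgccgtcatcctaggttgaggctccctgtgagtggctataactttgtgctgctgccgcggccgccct
Foxp1, upstream start inside an island (chr6:99520994-99521243, minus strand): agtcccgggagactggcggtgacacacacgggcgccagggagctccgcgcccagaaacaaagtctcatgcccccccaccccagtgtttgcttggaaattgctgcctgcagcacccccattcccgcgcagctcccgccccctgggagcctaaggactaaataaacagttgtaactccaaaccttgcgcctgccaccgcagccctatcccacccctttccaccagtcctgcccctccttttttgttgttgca
Foxp1, middle start outside islands (chr6:99266516-99266765, minus strand): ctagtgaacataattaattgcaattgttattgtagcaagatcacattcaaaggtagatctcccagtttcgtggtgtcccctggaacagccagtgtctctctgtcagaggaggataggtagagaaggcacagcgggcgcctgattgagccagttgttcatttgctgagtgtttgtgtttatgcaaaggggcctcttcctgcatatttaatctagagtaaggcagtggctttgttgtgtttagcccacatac
Foxp1, downstream start inside an island (chr6:99028299-99028548, minus strand): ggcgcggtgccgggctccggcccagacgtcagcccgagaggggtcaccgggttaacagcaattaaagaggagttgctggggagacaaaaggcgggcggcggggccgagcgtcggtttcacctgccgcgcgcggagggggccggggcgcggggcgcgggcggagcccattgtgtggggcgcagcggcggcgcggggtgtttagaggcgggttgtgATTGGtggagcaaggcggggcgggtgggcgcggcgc
Foxp3, upstream start outside islands (chrX:7579426-7579675, plus strand): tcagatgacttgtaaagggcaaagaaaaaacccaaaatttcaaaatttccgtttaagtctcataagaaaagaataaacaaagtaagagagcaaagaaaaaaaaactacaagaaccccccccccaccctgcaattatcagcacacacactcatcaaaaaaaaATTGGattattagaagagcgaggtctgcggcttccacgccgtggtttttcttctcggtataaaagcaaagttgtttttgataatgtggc

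The 6 starts inside islands had 11 to 48 CG dinucleotides in these 250 bases (median 29.0), and the 4 starts outside had 3 to 7 (median 5.50). The ranges do not overlap. Over all listed starts the medians differed in the same direction, with 18 CG inside islands and 3 outside. That direction is thus not particular to the forkhead genes. The clean separation did not hold there: 276 starts inside islands had 7 CG, and 295 outside had 11. Within Foxp1 the upstream, middle and downstream starts had 11, 3 and 34 CG dinucleotides, and the start with the fewest was the one outside islands. Foxk2 had the most CG of the 10, at 48, a number reached by 0.186% of all starts. Foxp3 had 6 and 7, and its upstream window was the poorest in G and C at 37.6%, where all listed starts had a median of 52.4%.

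**Figure D1:**
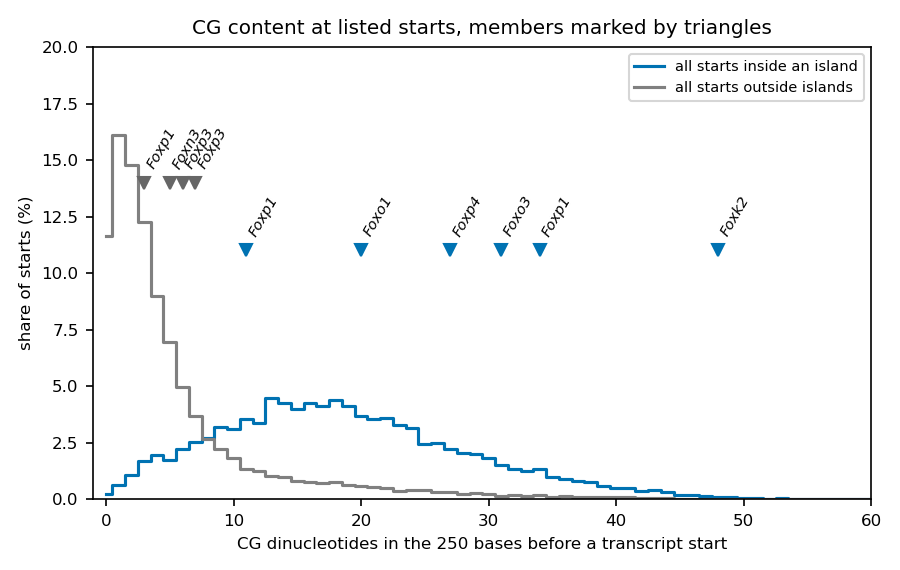
Number of CG dinucleotides in the 250 bases before listed transcript starts (x axis) against the share of starts in percent (y axis), for all starts inside islands (blue line) and outside (grey line). Triangles mark the forkhead starts at a height chosen for reading only: the 6 blue ones, inside islands, lie at 11 to 48, and the 4 grey ones, outside, at 3 to 7.

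Motifs were searched on both strands as exact letters. The forkhead motif TGTTTAC and the TCF/LEF motif CTTTGAT matched in none of the 10 windows, and they match in 3.17% and 3.21% of all windows. The same held for ETS (CCGGAAG, 6.91% of all windows), RUNX (TGTGGTT, 4.40%), AP-1 (TGANTCA, 6.75%) and the E-box (CACGTG, 6.02%). The CCAAT box (CCAAT, or ATTGG on the other strand, 33.9% of all windows) matched 3 times before the Foxo1 start, 2 times before Foxk2, and 1 time each before the downstream Foxp1 start and the upstream Foxp3 start. Before the Foxo3 start there was 1 match to NRF1 (3.74%) and 1 to SP/KLF (GGGGCGGGG, 10.4%), and these motifs do not overlap. A match is a description of the letters, and a window without one says nothing about binding.

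The 8 genes with islands each had an island over exactly 1 of their ends. Strand is known for 6 of them, and in 6 of 6 the island lay at the start side and in 0 of 6 at the far end. These 8 gene-end islands together held 252 peak-side and 444 control-side reads. Each ratio below divides the peak-side reads by the control-side reads times 0.345, as the authors' fold change does, and is followed by its exact (Clopper-Pearson) 95% interval. The intervals cover counting error only, since the table holds no replicates and PCR copies were not marked. An island is called where the authors' deposited table gives an FDR under 0.05, as it does for 82.3% of all 16584 islands. Of the 30 forkhead islands 26 were called (86.7%), a share close to that background. The FDR takes the scaled control-side count as exact, and the interval does not. An island can thus be called with an interval that includes 1.

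**Figure D2:**
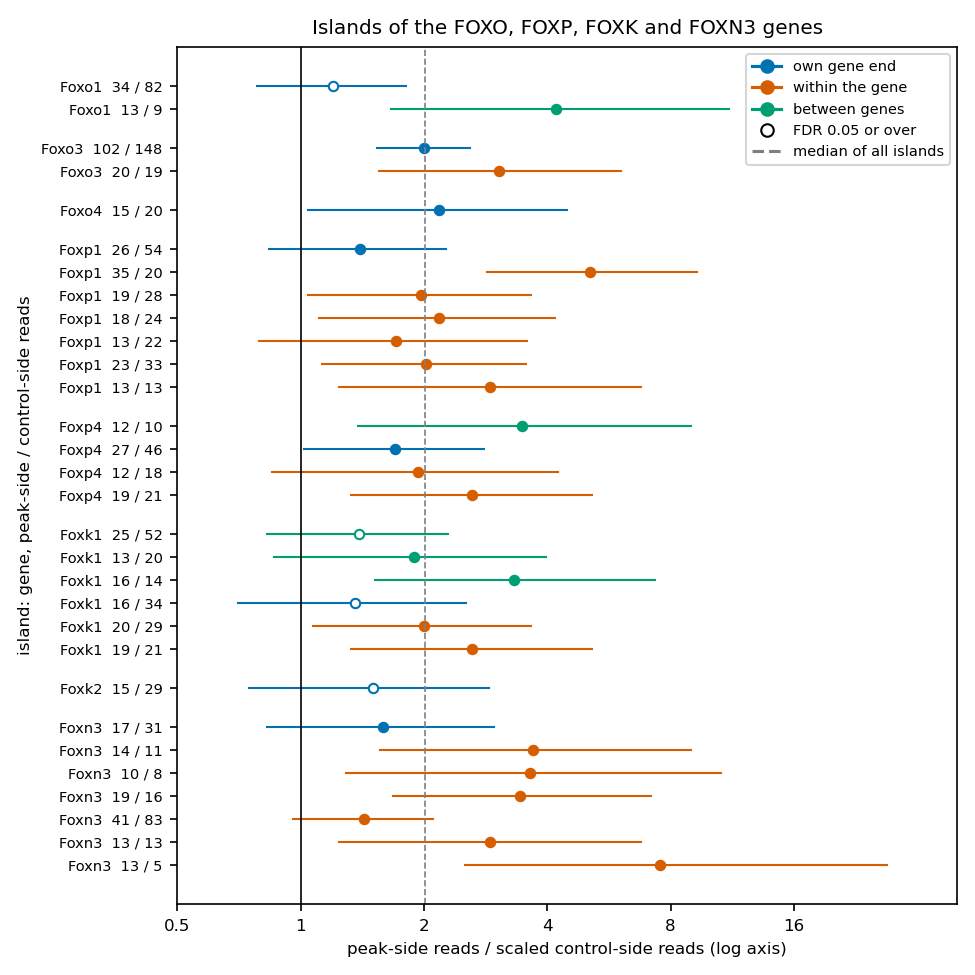
Ratio of peak-side to scaled control-side reads for each of the 30 forkhead islands on a log axis (points) with its exact 95% counting interval (lines), ordered along each gene and labelled with peak-side and control-side reads. Colours give the place, open circles are the 4 islands that were not called, the solid line is a ratio of 1 and the dashed line the median of all islands (2.01). The islands over gene ends lie between 1.20 and 2.18, and the highest points belong to Foxn3 (7.54) and Foxp1 (5.08).

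Among the FOXO genes, Foxo3 had the gene-end island with most reads and Foxo1 the one with the lowest ratio. The island over the Foxo3 start (chromosome 10, 42273801 to 42279000) had 102 peak-side and 148 control-side reads, a ratio of 2.00 (1.54 to 2.59) and an FDR of 6.4e-09. Only 39 of the 16584 islands had more peak-side reads. It was 5200 bp wide, a width that 1.81% of islands reach, and it held 19.6 peak-side reads per kb, which 17.6% of islands reach. It also covers an end of Gm38485, a lncRNA gene, and the reads of both genes cannot be told apart. A second Foxo3 island lay within the gene, 6.79 kb from the start (42269201 to 42270600), with 20 and 19 reads and a ratio of 3.05 (1.55 to 6.05).

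Foxo1, the FOXO gene best known for lymphocyte homeostasis, had an equally wide island of 5200 bp over its start (chromosome 3, 52266001 to 52271200). It held 34 and 82 reads, a ratio of 1.20 (0.782 to 1.81) and an FDR of 0.134, so it was not called. Its 6.54 peak-side reads per kb were below the median of all islands, 10.6. Between genes, 19.1 kb past the far end of Foxo1 (52369201 to 52372000), an island with 13 and 9 reads had a ratio of 4.19 (1.66 to 11.1). The interval at the start and the interval past the gene share only the stretch from 1.66 to 1.81. The next island along, 50.1 kb from Foxo1 and so just outside the rule, had 11 and 17 reads and a ratio of 1.88 (0.795 to 4.25). The farthest island that the 50 kb limit admitted was one of Foxk1, 33.3 kb away. Foxo4, a short gene on chromosome X, had 1 island over an end (101253401 to 101256000) with 15 and 20 reads and a ratio of 2.18 (1.04 to 4.47). Pooled over islands, the 3 FOXO genes had ratios of 1.50 (1.03 to 2.15) for Foxo1, 2.12 (1.66 to 2.69) for Foxo3 and 2.18 (1.04 to 4.47) for Foxo4, and these intervals overlap.

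The FOXP genes divided into those with several islands and those with none. Foxp1, which spans 597 kb of chromosome 6, had 7 islands, together 147 and 194 reads at a pooled ratio of 2.20 (1.76 to 2.74), all 7 called. Only 59 of 21900 protein-coding genes (0.269%) had 7 or more islands by the same rule. Long genes offer more room, and of 557 genes of at least 300 kb, 298 (53.5%) had no island in the body and 8 had 7 or more. Those 8 were Maml3, Foxp1, Itpr1, Gse1, Rora, Rad51b, Foxn3 and Arhgap26, so 2 of them are forkhead genes described here.

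The strongest signal of Foxp1 lay inside the gene, 36.6 kb from its start side (99485001 to 99487200). That island had 35 peak-side and 20 control-side reads, a ratio of 5.08 (2.85 to 9.28) and an FDR of 1.6e-12. Of the 2539 islands with at least 35 peak-side reads, 3 had a ratio as high, this island included. The other two were assigned to Lrrc73 and, within Synj2, to Serac1. The gene-end island of Foxp1 (99520801 to 99524400) had 26 and 54 reads and a ratio of 1.40 (0.839 to 2.27), an interval that does not reach that of the internal island. The internal island was picked out here for its ratio, so this is a description. The gene-end FDR of 0.0485 lies just under the threshold.

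The island over the downstream Foxp1 start (99025401 to 99029200) had 23 and 33 reads and a ratio of 2.02 (1.13 to 3.55). A pair of internal islands 9.60 kb apart (99358001 to 99362600 and 99372201 to 99376400) had 18 and 24 and 19 and 28 reads, with ratios of 2.18 (1.11 to 4.18) and 1.97 (1.04 to 3.65). These islands were wide, at 4600 and 4200 bp, and thin in reads, at 3.91 and 4.52 per kb. The last 2 islands, at 98991001 to 98993200 and 99094801 to 99097200, had 13 peak-side reads each and ratios of 2.90 (1.24 to 6.79) and 1.71 (0.793 to 3.56), and the latter lies 469 bp from an end of the noncoding gene Gm19665. The middle of Foxp1 was bare, with 261 kb between neighbouring islands, and the middle start lies in that gap.

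**Figure D3:**
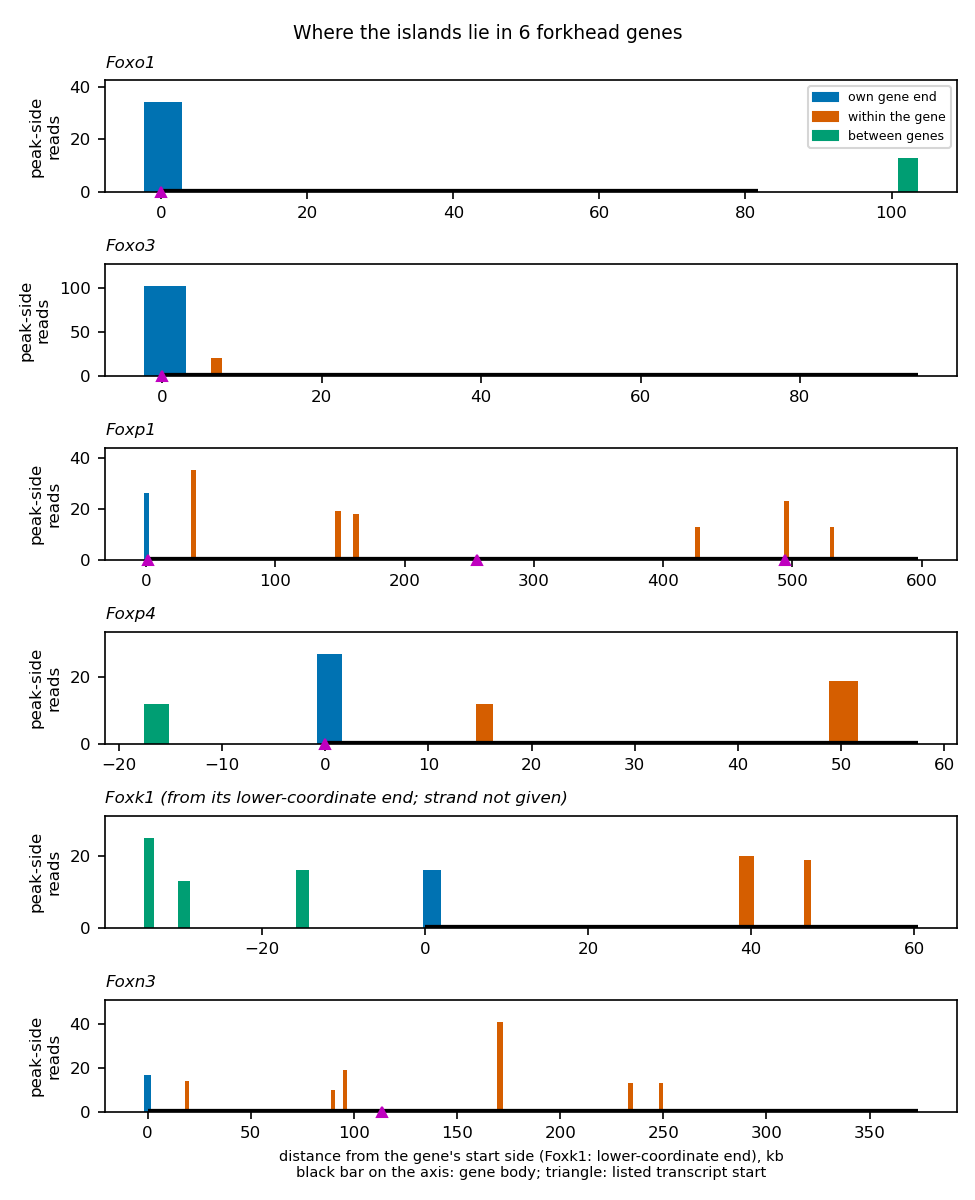
Islands along 6 forkhead genes: distance in kb from the gene's start side, or for Foxk1, whose strand was not matched, from its lower-coordinate end (x axis) against peak-side reads (y axis, a separate scale for each gene). Coloured bars are islands drawn at their place and, where wide enough to see, at their width. Black bars are gene bodies and triangles listed starts. Foxp1 and Foxn3 have 7 islands each spread over 533 and 252 kb, and the Foxo3 start carries 102 reads.

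Foxp4 had 4 islands, together 70 and 95 reads at a pooled ratio of 2.14 (1.55 to 2.94), all called. The island over its start (chromosome 17, 47923001 to 47925400) had 27 and 46 reads and a ratio of 1.70 (1.02 to 2.80), and it ends 74 bp from the lncRNA gene Gm46601. Within the gene, islands 15.4 and 50.2 kb from the start (47908401 to 47910000 and 47873001 to 47875800) had ratios of 1.93 (0.850 to 4.24) and 2.62 (1.33 to 5.13). The fourth, 16.4 kb upstream of the start (47939801 to 47942200), had 12 and 10 reads and a ratio of 3.48 (1.38 to 8.99). All 4 intervals overlap, so no order among them can be read.

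Foxp2 and Foxp3 had no island by the rule. Foxp2, known from brain development, spans 541 kb of chromosome 6 and had none within 60 kb of its body either. For Foxp3, on chromosome X (7579676 to 7595243), the nearest island (7573001 to 7574800) lay 4.88 kb outside the gene and covered an end of Ppp1r3f. It had 15 and 32 reads and a ratio of 1.36 (0.684 to 2.58), and it was not called. The lowest peak-side count in the table is 8, so a missing island does not show that a gene was closed. Of 10 regulatory T cell markers, Foxp3 included, 5 had an island: Cd3d, Il2ra, Ctla4, Ikzf2 and Tnfrsf18. The other 5 were Foxp3, Cd3e, Cd3g, Cd4 and Cd28. Within 1 kb of an end of Cd4 lay 1 island, which the rule did not give to Cd4 because another gene's end was nearer. Across all protein-coding genes, 55.1% had an island by the same rule.

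The gene-end islands of both FOXK genes were not called. Foxk1, on chromosome 5, had 6 islands, together 109 and 170 reads at a pooled ratio of 1.86 (1.45 to 2.38), and 4 of the 6 were called. The island over its lower-coordinate end (142401201 to 142403400) had 16 and 34 reads, a ratio of 1.36 (0.704 to 2.54) and an FDR of 0.0976. Its internal islands (142440001 to 142441800 and 142448001 to 142448800) had ratios of 2.00 (1.07 to 3.66) and 2.62 (1.33 to 5.13). The second of these is narrow, at 800 bp, and with 23.8 peak-side reads per kb it is the densest of the 30 islands.

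Outside Foxk1, on the side of the end with an island, 3 islands lay between genes. The nearest to the gene (142385601 to 142387200) had 16 and 14 reads and a ratio of 3.31 (1.52 to 7.33). Those farther out (142371201 to 142372600 and 142367001 to 142368200) had ratios of 1.89 (0.862 to 3.98) and 1.39 (0.829 to 2.29). The outermost covers an end of the lncRNA gene Gm31068 and was not called (FDR 0.0519). Foxk2, on chromosome 11, had 1 island, over its start (121259201 to 121261200), with 15 and 29 reads, a ratio of 1.50 (0.748 to 2.89) and an FDR of 0.0581. It is the 1 gene of the 8 without a called island. The FOXK islands together had a pooled ratio of 1.81 (1.43 to 2.27), the FOXP islands 2.18 (1.82 to 2.61) and the FOXO islands 1.92 (1.58 to 2.32), and the 3 intervals overlap.

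Foxn3, a gene of 374 kb on chromosome 12, resembled Foxp1 in its number of islands. Its 7 islands held 127 and 167 reads at a pooled ratio of 2.21 (1.74 to 2.80), all called. The one with the highest ratio of the 30 lay 249 kb into the gene (99313601 to 99316000), with 13 and 5 reads and a ratio of 7.54 (2.52 to 27.0). The width of that interval comes from the 5 control-side reads. Another 4 internal islands, with 10 to 19 peak-side reads, had ratios of 2.90 (1.24 to 6.79) at 99328801 to 99330200, 3.44 (1.68 to 7.16) at 99467201 to 99468800, 3.63 (1.29 to 10.6) at 99473001 to 99474600 and 3.69 (1.56 to 8.99) at 99543801 to 99545400.

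The Foxn3 island with most reads (99391601 to 99394400) had 41 and 83 reads and a ratio of 1.43 (0.961 to 2.11). It also covers an end of Gm51999, a protein-coding gene model nested in Foxn3, and by nearest end alone 5 of the 7 islands would go to Gm51999. The island over the start side of Foxn3 (99562001 to 99565400) had 17 and 31 reads and a ratio of 1.59 (0.826 to 2.96), and it covers an end of the lncRNA gene Gm26839. The 2 Foxn3 islands that cover a protein-coding gene end thus had lower ratios than its 5 other islands. Only 1 pair of intervals is apart, that of the 41-read island and that of the island with a ratio of 7.54.

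Ratios were lower over gene ends than inside the genes, as they were in the whole table. The 8 islands over the genes' own ends had a pooled ratio of 1.65 (1.40 to 1.93) and a median of 1.55. The 17 islands within the genes had 321 and 384 reads, a pooled ratio of 2.42 (2.08 to 2.82) and a median of 2.62, and the 2 pooled intervals do not overlap. Over all islands the median ratio was 1.86 at gene ends and 2.34 elsewhere within genes, so the direction is shared with the table. Of the 8 gene ends, 5 were called, against 80.8% of all gene-end islands, and of the 17 internal islands 17 were called, against 85.5% of all islands within genes. The 5 islands between genes had a pooled ratio of 2.18 (1.61 to 2.95), and 4 were called, against 82.8% of all such islands.

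**Figure D4:**
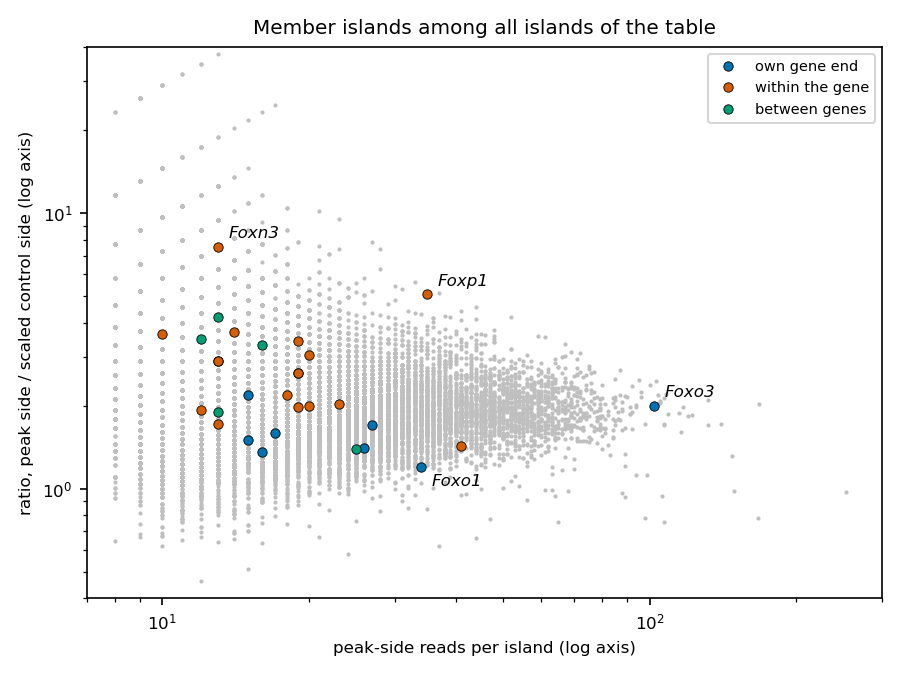
Peak-side reads (x axis, log) against ratio (y axis, log) for the islands of the table that fall inside the axes (grey) and the 30 forkhead islands (coloured by place). Foxp1 at 35 reads and a ratio of 5.08 lies at the upper edge of the cloud, Foxo3 at 102 reads at its right end, and the Foxo1 start (34 reads, 1.20) near its lower edge.

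The median forkhead island was wider and thinner in reads than the median island of the table. Median width was 2300 bp against 1800 bp for all islands, and median peak-side density was 7.39 reads per kb against 10.6. The share lying within 1 kb of any protein-coding gene end was 30.0%, against 55.7% of all islands. The rule takes in every island of a gene body however long the gene is, and its part in this difference was not tested. The median ratio of the 30 islands, 2.10, was near that of all islands, 2.01. Scaling sets the level of all these ratios: with the control side scaled by the reads in all islands, 3 of the 30 were called (Foxp1 at 99485001, Foxn3 at 99313601 and Foxo1 at 52369201), against 9.19% of all islands.

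Of 34 further Fox genes of the mouse, 16 (47.1%) had an island and 12 a called one, beside 8 and 7 of the 10 described here. The difference was not tested, since the 10 genes were proposed with earlier results of these data in view. Across all protein-coding genes 55.1% had an island and 47.6% a called one. The 4 with the lowest FDR were Foxs1, Foxj2, Foxf2 and Foxl2. Foxs1 had 2 islands, and the one of lowest FDR, between genes, had 16 and 7 reads and a ratio of 6.63 (2.58 to 19.1). Foxj2 had 2 islands and a pooled ratio of 1.98 (1.45 to 2.69), with 73 and 107 reads. Foxf2 and Foxl2 had 1 island each, with 14 and 9 and with 18 and 15 reads, at ratios of 4.51 (1.82 to 11.8) and 3.48 (1.66 to 7.42). Foxj3 (28 and 41 reads, 1.98, 1.18 to 3.28) was called and Foxn2 (33 and 78 reads, 1.23, 0.791 to 1.87) was not. Foxo6, the remaining FOXO gene, had 1 called island with 29 and 54 reads and a ratio of 1.56 (0.956 to 2.49). Foxm1, a driver of mitosis, had 14 and 31 reads and was not called. The endoderm genes Foxa1 and Foxa2 were among those without an island.

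Genes of the pathway that controls FOXO proteins had islands in 30 of 32 cases, and 29 had a called one. Pik3cg and Inpp4b had no island. Across all protein-coding genes 55.1% had an island and 47.6% a called one. The difference was not tested, since the list was chosen with earlier results of these data known. Xpo1, the exportin that carries FOXO out of the nucleus, had the lowest FDR, with 90 and 121 reads over a gene end and a ratio of 2.16 (1.62 to 2.86). Mtor, Inpp5d and Pik3r1, which encode a growth kinase, the phosphatase SHIP1 and a PI3K regulatory subunit, followed with ratios of 2.83 (1.77 to 4.51), 3.66 (1.92 to 7.07) and 2.64 (1.67 to 4.14) at their islands of lowest FDR. Pik3r1 had 6 islands, Pik3cd 5 and Inpp5d 4. The kinase genes Akt1 and Akt2 had pooled ratios of 1.71 (1.16 to 2.49) and 1.63 (0.932 to 2.78), whose intervals overlap.

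Known FOXO targets had islands in 29 of 32 cases, 28 with a called one, and Trim63 and Rag1 were among those with none. The shares over all protein-coding genes were 55.1% and 47.6%. Cdkn1a, a cell cycle inhibitor, had an island between genes (chromosome 17, 29072601 to 29074800) with 21 and 13 reads and a ratio of 4.69 (2.24 to 10.2). Sesn3, a brake on mTOR signalling, had a gene-end island of 76 and 106 reads, at a ratio of 2.08 (1.53 to 2.82). Bcl2l11, which encodes the death-promoting protein BIM, had 2 islands, and the one at its gene end held 92 and 141 reads at a ratio of 1.89 (1.44 to 2.48). Gabarapl1, an autophagy gene, had 18 and 12 reads and a ratio of 4.35 (1.98 to 9.90). Il7r, Klf2 and S1pr1, FOXO targets of lymphocyte survival and homing, had pooled ratios of 2.16 (1.29 to 3.58), 1.75 (1.14 to 2.66) and 2.29 (1.48 to 3.51). Each of 18 partners of FOXP and FOXK proteins had an island, 17 a called one, beside the same shares over all genes. The target and partner lists were also chosen with earlier results known, and no difference was tested. Nfatc1 and Nfatc2, calcium-regulated partners of FOXP3, had 11 and 8 islands, Runx1 had 6, and Sin3a, the FOXK corepressor, had 130 and 203 reads in 2 islands.

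**Figure D5:**
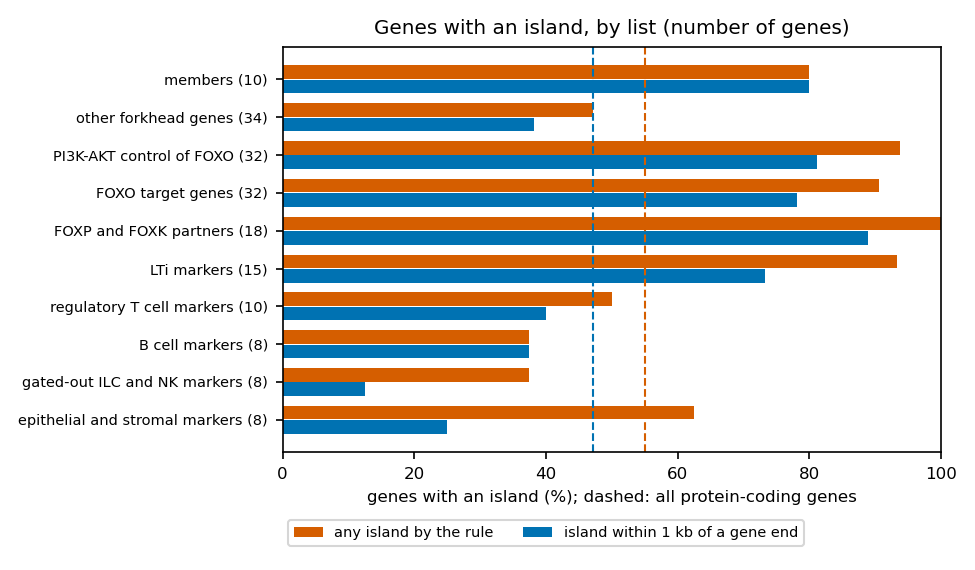
Share of the genes of each list, in percent, with any island by the rule (orange) and with an island within 1 kb of either gene end, counted even where another gene's end is nearer (blue). Dashed lines give the same over all protein-coding genes, 55.1% and 47.1%. The members stand at 80.0%, the FOXO control and target lists at 93.8% and 90.6%, and the other forkhead genes at 47.1%.

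Markers of the sorted cells were checked by the same rule. Of 15 LTi markers 14 had an island and 13 a called one, and Ccr6, part of the sort, had none. Those of lowest FDR were Il1r1, Kit, Tnfsf11 and Tnfrsf25, with pooled ratios of 3.63 (2.78 to 4.75), 3.10 (2.29 to 4.18), 3.79 (2.69 to 5.36) and 2.72 (1.90 to 3.91). Islands were present in 3 of 8 B cell markers, 3 of 8 markers of gated-out innate lymphoid and NK cells and 5 of 8 epithelial and stromal markers. In the same order 3, 2 and 5 genes had a called island, the 2 being Klrg1 and Klrb1c. Median ratios of the islands were 3.07, 1.97 and 2.22 for these lists and 2.71 for the LTi markers. Over all protein-coding genes 55.1% had an island and 47.6% a called one. The lists are short, other cell types' part in the forkhead islands was not tested, and in pooled cells a region open in fewer cells and one cut less often in each cell cannot be told apart.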

How the data were processed

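DNase-seq was measured in 4 libraries of LTi cells, 2 Tcf7+/+ and 2 Tcf7fl/fl-RorcCre. The submitters' processing notes name Bowtie2 2.4.2, the island caller SICER 2.0 and the build mm10. Per the file headers, the authors deposited unnormalized read counts on a peak side and a control side for each of 16584 islands, with a p-value, an FDR and a fold change (a ratio). The fold, p-value and FDR were recomputed from the counts for all 16584 islands (tolerance 1e-06). The fold scales the control side by 0.345 and reads 0 as 0.25, the p-value is an upper Poisson tail, and the FDR ranks p over the table. The sources used here give neither library totals nor pooling. The islands held 425134 peak-side and 645087 control-side reads, with medians of 18 and 27 per island, and these counts set the precision of each fold.

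Coordinates are 1-based mm10. Genes and starts came from RefSeq (GRCm38.p6, the assembly mm10 names, 21900 protein-coding genes), and all 10 members matched by symbol. Starts and strand were matched for 7 members. No genome sequence was used, so the sequence of islands was not analysed here. Python 3.11.15 and SciPy 1.17.1 computed the counts, intervals and recomputed calls, which were tested on simulated data. The named islands are those over a member's own end and, for each member, up to 5 others of lowest FDR, the one with most reads and the one of lowest fold. In the forkhead, pathway, target, partner, LTi and regulatory T cell lists up to 4 genes of lowest FDR were named. The other marker lists are given by counts, and further genes, Klrg1 and Klrb1c among them, were picked after their values were seen. Some listed genes are not reported here. The members and lists were chosen with earlier results of these data known. The planned edgeR comparison of genotypes was not run, since no column belongs to a library, and the islands are described instead. Alternatives covered gene assignment, scaling, FDR, fold and read minimum.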

Additional observations from a re-analysis of the deposited data

How the results depend on the processing

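The number of the 30 forkhead islands that were called moved with the scaling of the control side, a fold minimum and a read minimum. With the control side scaled by the reads in all islands, 3 were called in place of 26, the pooled fold was 1.06 in place of 2.03 and the median fold 1.10 in place of 2.10. Scaled by the median ratio, 2 were called (Foxp1 and Foxn3), and the pooled and median folds were 1.01 and 1.05. Both scalings bring the folds of the whole table near 1 by construction, and 9.19% and 6.61% of all islands were then called. Asking for a fold over 2 as well left 17 called islands, and asking for at least 20 peak-side reads left 8, since fewer islands were eligible. Of the islands with that many reads, only those of Foxo1 with 34 and Foxk1 with 25 were not called, as before. An FDR under 0.01 left 20. The shares of all islands called under these settings are not given here, so these counts have no background to be read against. With nearest gene ends within 10 kb only, 10 islands belonged to the genes in place of 30, because islands farther than that from any end, or nearer to another gene's, drop out. The same 8 genes had an island under all 3 other assignments. Leaving out the islands of Foxn3, those nearest to Gm51999 or those of Foxo3, chosen after seeing the data, kept each value within 1.5 times. No paired analysis was possible because neither read column belongs to a library, and for the same reason no replicate was left out. Counting depth limits single islands: 10 of the 30 intervals include 1. Some of these islands were called, for example that of Foxp1 at 99094801 (0.793 to 3.56).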

Other observations

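Noncoding genes ended within 1 kb of 6 of the 30 forkhead islands (20.0%), and of 17.0% of all 16584 islands. The noncoding genes were Gm38485 at Foxo3, Gm19665 in Foxp1, Gm46601 at Foxp4, Gm31068 near Foxk1, and Gm46371 and Gm26839 at Foxn3. Over all listed starts, the NRF1 motif was present in 9.57% of the windows inside islands and 0.830% outside, and the ETS motif in 15.5% and 2.64%. The forkhead motif was present in 1.89% and 3.81%, and the TCF/LEF motif in 2.21% and 3.71%.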
